A study of Homo sapiens with 6 samples.

Results

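The aminoacyl-tRNA synthetases were followed in U251 cells, an established human glioblastoma line, after knockdown of TRAF2, an adaptor protein of tumor necrosis factor receptor signaling. They were chosen by name as a family, with earlier results of these data known: 19 synthetases of the cytosol, 16 of the mitochondrion, and the scaffold proteins AIMP1 and AIMP2. All 37 were found among the 23002 genes of the deposited table. The control cells carried a lentivirus with a non-targeting short hairpin RNA (sh-NC, 3 samples), and the knockdown cells one with a hairpin against TRAF2 (sh-TRAF2, 3 samples). Both were stable lines selected with puromycin, and the vector listed for the TRAF2 hairpins also carries EGFP. The vector of the control hairpin is not given in the sources used here, and no uninfected cells were analysed here. Which TRAF2 hairpin was sequenced is not given in the sources used here. The study names 3 biological replicates per group and states in general terms that experiments were repeated independently. It does not say whether these libraries came from separate cultures, so p-values measure the spread between these samples, which may be technical.

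Each synthetase joins an amino acid to its tRNA, and the charged tRNA carries that amino acid to the ribosome. Cytosolic and mitochondrial translation mostly use separate enzymes, all encoded in the nucleus. The cytosolic set carries the suffix 1 (FARSA and FARSB are the subunits of the cytosolic phenylalanyl enzyme) and the mitochondrial set the suffix 2. Some cytosolic enzymes sit in the multi-tRNA synthetase complex, which AIMP1 and AIMP2 hold together. Several synthetase genes are known targets of ATF4, the transcription factor of the amino acid response.

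Levels are given as FPKM, fragments per kilobase of transcript scaled to sequencing depth, so that genes can be compared with each other. The reads behind the values came to 33999558 to 36823562 per sample, and each synthetase held 134 to 51069 reads in a sample. TRAF2 itself fell from 16.3 ± 1.84 FPKM (SD, n = 3) in sh-NC to 3.27 ± 0.054 (SD, n = 3) in sh-TRAF2, a log2 fold change of -2.27 (standard error 0.079). Of the glial and glioblastoma markers examined, VIM stood at 1208 FPKM or more in every sample. CD44, TNC, SOX2 and SOX9 were all above 24 FPKM, whereas S100B was near 0 and GFAP ranged from 0.334 to 1.62. NES, GFAP, SLC1A3 and VIM were higher in sh-TRAF2 (log2 fold changes 1.12, 1.11, 0.47 and 0.35), and their part in the values below was not tested. All 16 markers of immune, endothelial, epithelial and other cell types in the table stayed under 1 FPKM, and their summed level was 0.785 to 1.11 in sh-NC and 0.542 to 0.977 in sh-TRAF2. In bulk RNA, fewer cells of a type and less RNA per cell cannot be told apart.

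The cytosolic enzymes were far more abundant than the mitochondrial ones. Their median level in sh-NC was 85.1 FPKM, against 8.92 for the mitochondrial enzymes, and 12 of the 16 mitochondrial enzymes lay below FARSB, the lowest cytosolic gene at 16.4. GARS1, the glycyl enzyme of both compartments, stood first at 506 ± 15.3 FPKM (SD, n = 3), followed by the tyrosyl enzyme YARS1 at 331 and the seryl enzyme SARS1 at 302. The threonyl enzyme TARS1 (268) and the alanyl enzyme AARS1 (249) came next. At the other end, the mitochondrial phenylalanyl enzyme FARS2 stood at 0.958 ± 0.0168 FPKM (SD, n = 3), so the genes spanned a 528-fold range. The isoleucyl enzyme IARS2 was the most abundant mitochondrial enzyme at 62.3 ± 2.26 FPKM (SD, n = 3). AIMP2 (52.3) was more abundant than AIMP1 (10).

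**Figure D1:**
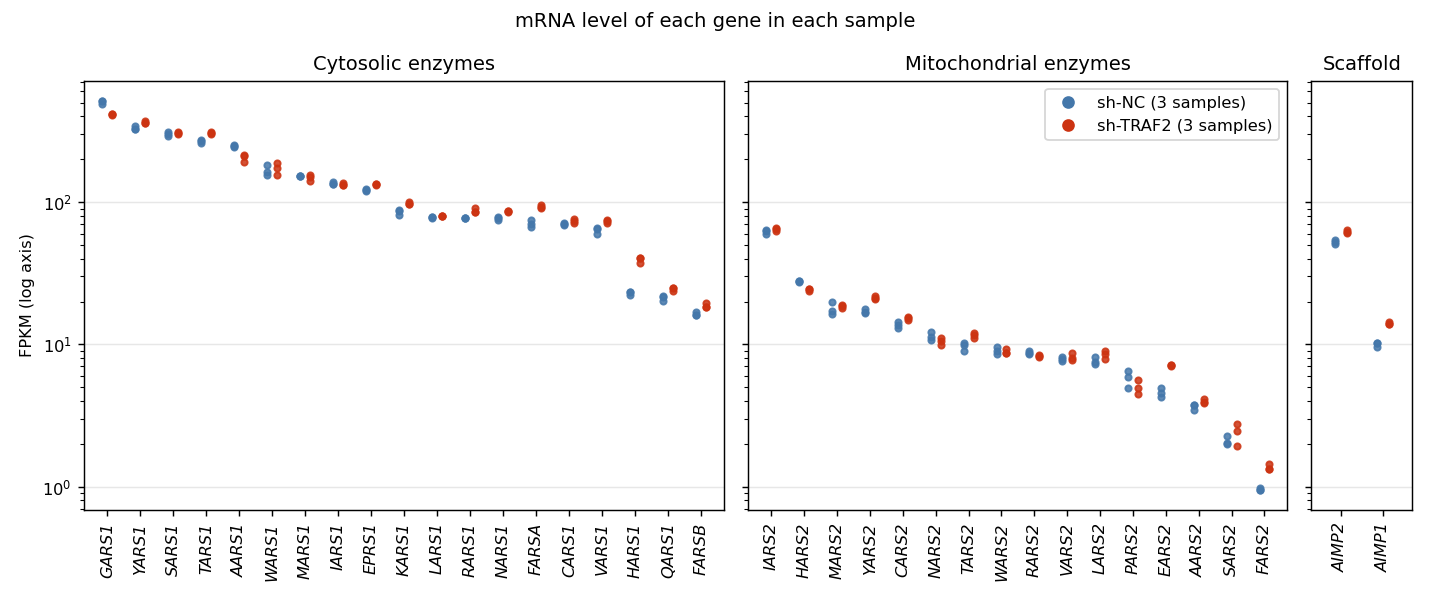
FPKM on a log axis of each cytosolic enzyme, mitochondrial enzyme and scaffold gene, ordered by the sh-NC mean, with 1 point per sample (blue sh-NC, red sh-TRAF2). GARS1 stands highest at 506 FPKM in sh-NC and FARS2 lowest at 0.958, and the red points of HARS1 lie above its blue points.

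Ordered by level in sh-NC, 10 of the 36 pairs of neighbours had overlapping samples. Among them were RARS1 and NARS1 (77.1 and 77.0 FPKM), FARSA and CARS1 (70.8 and 70.0), and the low mitochondrial run of TARS2, WARS2 and RARS2 (9.68, 9.09 and 8.76). The coefficient of variation between replicates had a median of 3.36% in sh-NC and 2.77% in sh-TRAF2. The prolyl enzyme PARS2 (13.6% in sh-NC) and the mitochondrial seryl enzyme SARS2 (17.6% in sh-TRAF2) were the most variable, with 369 to 549 and 134 to 193 reads in a sample.

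Where synthetase transcripts changed, they rose more often than they fell, and by small amounts. The groups were compared on log2(FPKM + 0.1) with limma, and genes were called at a Benjamini-Hochberg adjusted p under 0.05 over the 11870 genes tested. This scale understates the change of low genes. Of the 37 genes, 18 were higher in sh-TRAF2, 3 were lower and 16 did not pass. Among all genes tested, 23.7% were called higher and 20.9% lower, so the upward share was above the background and the downward share below it. The median log2 fold change was 0.14 for the 37 genes and 0.02 for all genes tested. None of the 37 reached the study's additional threshold of an absolute log2 fold change above 1, which 1.72% of all genes passed with their adjusted p.

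The samples separated more often than the test called. In 21 genes every sh-TRAF2 sample lay above every sh-NC sample, and in 4 every one lay below, leaving 12 with overlapping groups. Across all genes tested, 29% were separated upward and 26.5% downward. By compartment, 11 cytosolic enzymes rose and 2 fell out of 19, with a median log2 fold change of 0.14. Of the 16 mitochondrial enzymes 5 rose and 1 fell, with a median of 0.09, and both scaffold genes rose. The called shares were 57.9% higher and 10.5% lower for the cytosolic enzymes, and 31.2% and 6.25% for the mitochondrial ones. Over all genes tested they were 23.7% and 20.9%, so the mitochondrial upward share lay nearer the background. It came to 4 to 6 mitochondrial rises when each sample was left out in turn. A call also depends on the standard error of the gene. Mitochondrial LARS2 (log2 fold change 0.15, standard error 0.069) did not pass and CARS2 (0.15, standard error 0.050) did. Cytosolic YARS1 (0.14, standard error 0.031) passed as well. The called shares alone therefore do not show that the compartments responded differently.

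**Figure D2:**
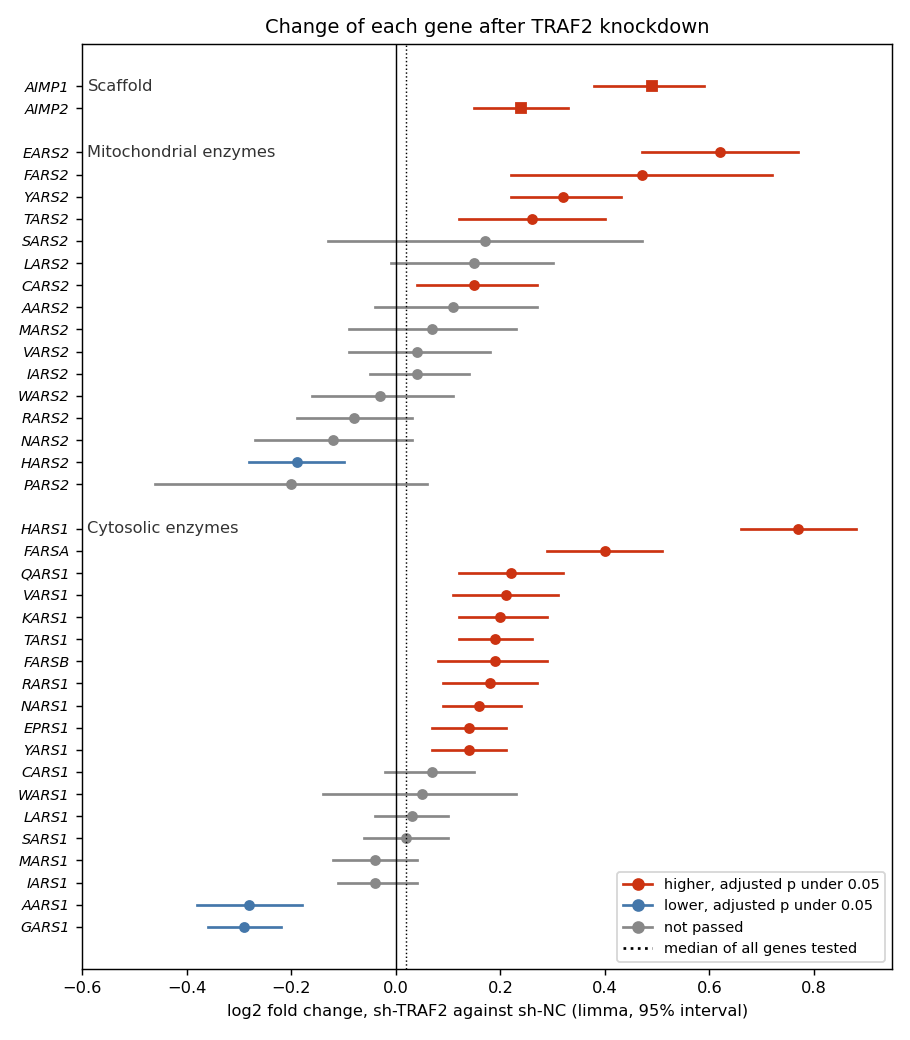
Log2 fold change of each gene in sh-TRAF2 against sh-NC with its 95% interval from limma, by group, where red and blue mark genes called higher or lower and grey those that did not pass. HARS1 lies farthest right at 0.77 and GARS1 farthest left at -0.29, while the dotted line at 0.02 is the median of all genes tested.

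HARS1, the cytosolic histidyl-tRNA synthetase, had the largest change of the 37. Its level was 23.4, 22.4 and 23.3 FPKM in the 3 sh-NC samples and 37.1, 40.3 and 40.6 in the 3 sh-TRAF2 samples. All knockdown samples were thus well above the controls, with the mean higher by 71.0%. On the log2 scale the rise was 0.77 (standard error 0.047), with an adjusted p of 1.23e-05.

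FARSA, the catalytic subunit of the phenylalanyl enzyme, was the next cytosolic rise. It measured 70.5, 75.2 and 66.6 FPKM in the controls and 92.2, 95.8 and 91.3 after knockdown, without overlap. Here the log2 rise was 0.40 (standard error 0.048), with an adjusted p of 0.000351. The partner subunit FARSB rose less, from 16.4 ± 0.483 to 18.7 ± 0.595 FPKM (SD, n = 3 each, log2 fold change 0.19, adjusted p = 0.0108). FARSA-AS1, annotated on the other strand over 1.03% of the exon bases of FARSA, also rose (log2 fold change 1.21, adjusted p = 0.00108).

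The glutaminyl, valyl and lysyl enzymes made up the rest of the 5 largest cytosolic rises. QARS1 went from 21.7, 21.4 and 20.1 FPKM in sh-NC to 23.7, 24.8 and 25.0 in sh-TRAF2 (log2 fold change 0.22, standard error 0.046, adjusted p = 0.00527). VARS1 went from 65.4, 64.8 and 59.8 FPKM to 71.8, 73.4 and 74.5 (log2 fold change 0.21, standard error 0.043, adjusted p = 0.00478). KARS1 went from 86.3, 87.5 and 81.5 FPKM to 99.5, 96.9 and 97.0 (log2 fold change 0.20, standard error 0.037, adjusted p = 0.00297). In none of these did the groups overlap, although each difference was under 17% of the control mean. The arginyl, threonyl, asparaginyl, glutamyl-prolyl and tyrosyl enzymes (RARS1, TARS1, NARS1, EPRS1 and YARS1) also rose, with log2 fold changes of 0.14 to 0.19. TARS1 and YARS1 were among the most abundant of these, rising from 268 ± 6.77 to 305 ± 5.40 and from 331 ± 9.15 to 364 ± 5.58 FPKM (SD, n = 3 each).

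The cytosolic falls were GARS1 and AARS1, both among the 5 most abundant of the 37 genes. GARS1 stood at 518, 489 and 511 FPKM in sh-NC and at 415, 407 and 419 in sh-TRAF2. Every knockdown sample was below every control, giving -0.29 as the log2 fold change (adjusted p = 0.000199, standard error 0.031). AARS1 stood at 250.2, 246 and 249.7 FPKM in sh-NC and at 192, 212 and 213 in sh-TRAF2, again without overlap. The difference on the log2 scale was -0.28 (adjusted p = 0.00139, standard error 0.044).

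GARS1 and AARS1 together gave 768, 735 and 761 FPKM in sh-NC and 607, 619 and 631 in sh-TRAF2. The sum over all 19 cytosolic genes was 2816, 2802 and 2820 FPKM in sh-NC and 2805, 2884 and 2873 in sh-TRAF2, so the groups overlapped. The share of the 5 most abundant genes in the cytosolic sum was 58.7% to 59% in sh-NC and 55.5% to 56.2% in sh-TRAF2.

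For 6 cytosolic enzymes the test was not passed. The methionyl enzyme MARS1 (log2 fold change -0.04, 95% interval -0.12 to 0.04), the isoleucyl enzyme IARS1 (-0.04, -0.11 to 0.04), the seryl enzyme SARS1 (0.02, -0.06 to 0.10) and the leucyl enzyme LARS1 (0.03, -0.04 to 0.10) all had intervals within 0.12 of 0. For the cysteinyl enzyme CARS1 the log2 fold change was 0.07 (-0.02 to 0.15). The tryptophanyl enzyme WARS1 was the least certain, with 162, 155 and 183 FPKM in sh-NC and 154, 175 and 187 in sh-TRAF2 (log2 fold change 0.05, -0.14 to 0.23). LARS1 and CARS1 did not overlap between groups, yet their means differed by only 2.27% and 4.81%.

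Both scaffold genes rose. AIMP1, whose secreted fragment is known as the cytokine EMAP II, stood at 10.2, 9.61 and 10.3 FPKM in sh-NC and at 14.4, 13.9 and 14.0 in sh-TRAF2. Its log2 fold change, 0.49 (adjusted p = 0.000128, standard error 0.048), was among the larger ones. AIMP2 stood at 50.6, 53.8 and 52.7 FPKM in sh-NC and at 61.1, 63.2 and 61.3 in sh-TRAF2 (log2 fold change 0.24, standard error 0.038, adjusted p = 0.00129). Neither overlapped between the groups.

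Of the 7 enzymes of the complex among the cytosolic set, 4 rose (EPRS1, KARS1, QARS1 and RARS1) and none fell by limma, with IARS1, LARS1 and MARS1 not passing. The 12 cytosolic enzymes outside it had 7 rises and 2 falls. EEF1E1, an elongation factor relative that is also part of the complex, was at 7.16 ± 0.503 FPKM in sh-NC and 7.58 ± 1.05 in sh-TRAF2 (SD, n = 3 each, adjusted p = 0.563).

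Synthetases fall into class I and class II by the fold of their catalytic core. Of the 19 class I genes 8 rose and none was called lower by limma in either compartment, whereas of the 16 class II genes 8 rose and 3 fell. The 3 falls, GARS1, AARS1 and HARS2, were thus all class II enzymes, as were the rises of HARS1, FARSA and FARS2. The difference between the classes was not tested.

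The largest mitochondrial rise was that of EARS2, the mitochondrial glutamyl enzyme. It went from 4.97, 4.56 and 4.28 FPKM in sh-NC to 7.19, 7.11 and 7.08 in sh-TRAF2, with the mean higher by 54.8%. This gave a log2 difference of 0.62 (adjusted p = 0.000187, standard error 0.066). FARS2, the mitochondrial phenylalanyl enzyme, went from 0.953, 0.976 and 0.944 FPKM to 1.44, 1.33 and 1.33 (log2 fold change 0.47, standard error 0.11, adjusted p = 0.00843). The phenylalanyl enzymes of both compartments therefore rose in every subunit measured.

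The tyrosyl enzyme YARS2 was at 17.0, 17.8 and 16.5 FPKM in sh-NC and at 21.3, 21.9 and 20.9 in sh-TRAF2 (log2 fold change 0.32, standard error 0.046, adjusted p = 0.000813). The threonyl enzyme TARS2 was at 9.88, 10.2 and 9.0 FPKM and then at 11, 11.7 and 12.1 (log2 fold change 0.26, standard error 0.062, adjusted p = 0.0101). For both, all knockdown samples lay above all controls. The cysteinyl enzyme CARS2 was at 13.6, 14.4 and 13.1 FPKM and then at 15.5, 14.9 and 15.2 (log2 fold change 0.15, standard error 0.050, adjusted p = 0.0358). That call was lost when any of 5 of the 6 samples was left out, with adjusted p up to 0.114.

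HARS2, the mitochondrial histidyl enzyme, was the single fall among the 16 mitochondrial enzymes chosen. It stood at 27.5, 27.7 and 28.0 FPKM in sh-NC and at 23.7, 24.5 and 24.6 in sh-TRAF2, without overlap. Its log2 difference was -0.19 (adjusted p = 0.00414, standard error 0.038).

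The other 10 mitochondrial enzymes did not pass, with log2 fold changes from -0.20 for PARS2 to 0.17 for SARS2. PARS2 ran from 4.95 to 6.51 FPKM in sh-NC and from 4.46 to 5.62 in sh-TRAF2 (95% interval of the log2 fold change -0.46 to 0.06). SARS2 ran from 1.98 to 2.27 FPKM and from 1.92 to 2.75 (-0.13 to 0.47), with as few as 134 reads in a sample. Changes of the size seen in EARS2 lay outside both intervals. IARS2, the most abundant, was at 62.3 ± 2.26 and 64.2 ± 1.87 FPKM (SD, n = 3 each, -0.05 to 0.14).

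The balance between compartments was read as the ratio of each cytosolic gene to its mitochondrial counterpart in the same sample, for 16 pairs. In sh-NC the cytosolic gene was the more abundant in 15 pairs, from 2.19-fold for IARS1 over IARS2 to 145-fold for SARS1 over SARS2. The exception was HARS1, whose ratio to HARS2 was 0.850, 0.810 and 0.832. In sh-TRAF2 that ratio was 1.57, 1.65 and 1.65, so that the cytosolic gene was the more abundant in all 16 pairs. The change of the log2 ratio was 0.96 (standard error 0.032).

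Across the 16 pairs the groups were separated in 8. Taken singly, 29% of all genes tested were separated upward and 26.5% downward. No such share was computed for ratios of other gene pairs, so the count does not show a shift particular to these pairs. After HARS1/HARS2, the largest changes were those of EPRS1/EARS2, whose ratio went from 26.3 to 18.7 (change of the log2 ratio -0.49, standard error 0.055), and of AARS1/AARS2, from 67.9 to 51.8 (-0.39, standard error 0.059). The smallest were TARS1/TARS2 (-0.07, standard error 0.079), WARS1/WARS2 (0.07, standard error 0.094) and FARSA/FARS2 (-0.07, standard error 0.059), whose groups overlapped. For the phenylalanyl enzyme only FARSA was paired. FARSB rose less (log2 fold change 0.19, against 0.47 for FARS2), and its ratio to FARS2 was not computed. EPRS1 was paired with both EARS2 and PARS2, so the pairs are not all separate. An exact two-sided permutation test over the 20 assignments of samples gave p = 0.1 for each of the 8 separated pairs, the smallest p that 3 samples against 3 allow, and 0.2 after adjustment over the pairs. The sum of the 16 mitochondrial genes was 206 to 216 FPKM in sh-NC and 217 to 222 in sh-TRAF2, and the cytosolic sum was 12.9 to 13.7 times that in sh-NC and 12.8 to 13.3 times in sh-TRAF2.

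**Figure D3:**
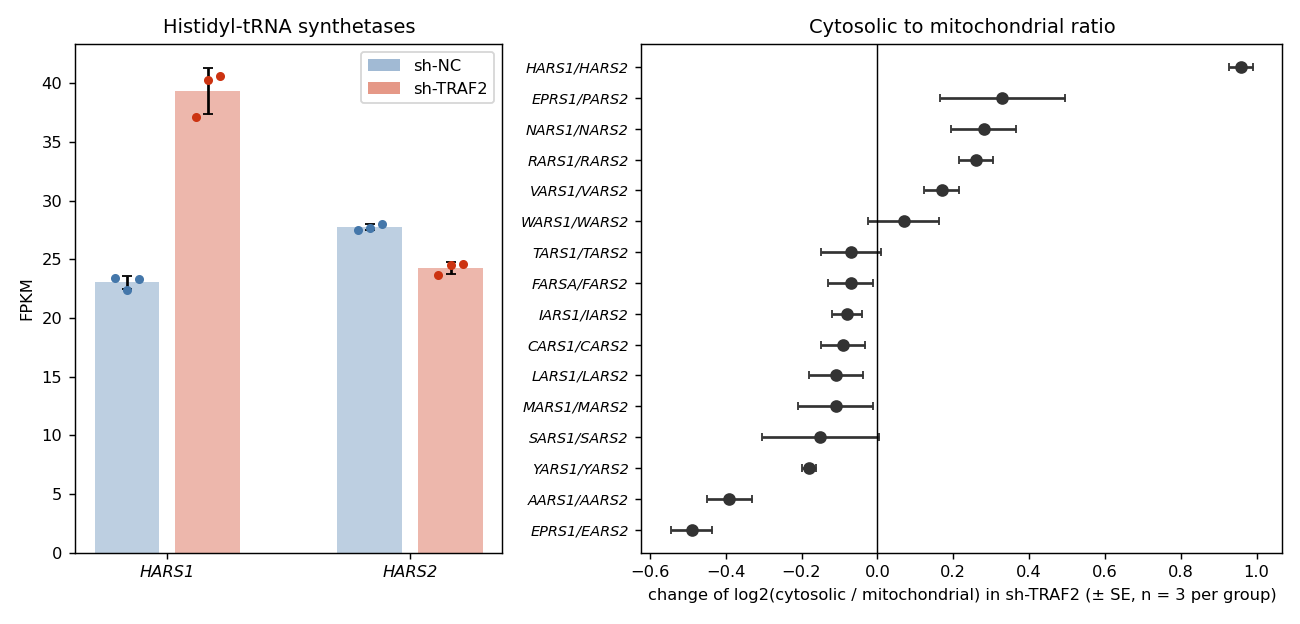
Left, FPKM of HARS1 and HARS2 in each sample (points), with the mean (bar) and SD (n = 3 per group). Right, the change in sh-TRAF2 of the log2 ratio of each cytosolic gene to its mitochondrial counterpart, with its standard error. HARS1 rises above HARS2 in sh-TRAF2, and their ratio has the largest change (0.96).

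HARS1 and HARS2 are neighbours. In the RefSeq promoter table (GRCh38.p14) their starts lie 85 bases apart and point away from each other, so they are read in opposite directions. In GENCODE release 29, 8.38% of the exon bases of HARS1 are also covered by HARS2 or WDR55, and 15.8% of those of HARS2 by HARS1 or ZMAT2. WDR55 (log2 fold change -0.07, adjusted p = 0.377) and ZMAT2 (0.07, adjusted p = 0.2) did not pass. Opposite starts within 1000 bases were found for 11 of the 32 genes with a promoter entry. The share among other genes was not counted, so this is not shown to be particular to the synthetases. LYRM4, which starts 57 bases from FARS2, was also higher (log2 fold change 0.23, adjusted p = 0.0284). TERF2IP, 108 bases from KARS1, was higher too (0.22, adjusted p = 0.00152). ORC3, 148 bases from RARS2, was lower (-0.30, adjusted p = 0.00778), while RARS2 itself did not pass (-0.08). UBFD1, 377 bases from EARS2, did not pass (0.14, adjusted p = 0.13).

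Shared exons limit some of these values, since the use of strand in counting is not given in the sources used here. Of the 37 genes, 7 had more than 10% of their exon bases under another gene. SARS2 shared 57.0%, in part with MRPS12 on the other strand, which rose (log2 fold change 0.23, adjusted p = 0.00969). AIMP2 shared 28.9% with EIF2AK1, for which the log2 fold change was 0.01 (adjusted p = 0.88). AIMP1 shared 11.6% with TBCK, for which it was -0.15 (adjusted p = 0.251). The part of these neighbours in the values was not tested.

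The promoters were searched for TGATGNAA on both strands, the letters of the composite element that ATF4 and a C/EBP partner are known to bind. The letters were chosen after the values were seen. The windows were 300 bases long, with 250 before and 50 after the start, from RefSeq (GRCh38.p14). The letters were found in 7 of the 32 genes with an entry, 6 of 16 cytosolic and 1 of 14 mitochondrial, against 1.73% of the windows of 9785 tested genes and 3.67% of all 27305 windows. The 7 windows are shown because they carry this feature, each 30 bases on the strand of the gene with the matching letters in capitals.
AARS1 (chr16:70289675-70289704, minus strand): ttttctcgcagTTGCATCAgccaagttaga
CARS1 (chr11:3057407-3057436, minus strand): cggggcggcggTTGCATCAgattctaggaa
IARS1 (chr9:92293692-92293721, minus strand): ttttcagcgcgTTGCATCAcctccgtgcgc
MARS1 (chr12:57488053-57488082, plus strand): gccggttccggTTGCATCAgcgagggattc
NARS1 (chr18:57621804-57621833, minus strand): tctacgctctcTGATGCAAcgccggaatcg
TARS1 (chr5:33440956-33440985, plus strand): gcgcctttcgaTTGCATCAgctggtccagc
YARS2 (chr12:32756076-32756105, minus strand): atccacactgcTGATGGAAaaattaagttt

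In the 6 cytosolic genes the 8 matching letters were the same, read on the opposite strand in 5 of them, and in 5 the match lay within 15 bases of the start. In AARS1 it began at position -187 and in YARS2 at -197, where 0 is the first base of the gene. The 7 genes did not all move one way. NARS1, TARS1 and YARS2 rose (log2 fold changes 0.16, 0.19 and 0.32), AARS1 fell (-0.28), and CARS1, IARS1 and MARS1 did not pass (0.07, -0.04 and -0.04). GARS1, the other cytosolic fall, had no match in its window. Of 3 other sets of letters chosen the same way, CACGTG (the E-box) was found in 4 of the 32 genes and 10.5% of tested genes. The NRF1 element was found in 1 and in 2.46%, and TATAAA in 2 and in 5.55%. A match describes letters and does not show binding.

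Genes of the amino acid response were mostly lower. Of 32 genes in a list of ATF4 and its known targets, 3 rose and 19 fell (9.38% and 59.4%, against 23.7% and 20.9% of all genes tested), with a median log2 fold change of -0.19. SLC7A5, a carrier of large neutral amino acids, fell from 213 ± 3.09 to 109.7 ± 2.94 FPKM (SD, n = 3 each, log2 fold change -0.95, adjusted p = 1.16e-06). GPT2, a mitochondrial alanine transaminase, fell from 34.9 ± 0.738 to 16.2 ± 1.11 FPKM (log2 fold change -1.11) and CTH, an enzyme of cysteine synthesis, from 37.0 ± 0.794 to 24.3 ± 0.912 (-0.61). The 3 rises, named after their values were seen, were ATF4 itself (0.19), the asparagine synthetase ASNS (0.61) and the folate enzyme MTHFD2 (0.35). GARS1 and AARS1 thus moved in the direction of most of the list, and most other cytosolic synthetases did not.

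In the list of genes that make, modify, export or protect tRNA, 18 rose and 4 fell of 43 genes tested (41.9% and 9.3%, against 23.7% and 20.9% of all genes tested), with a median log2 fold change of 0.13. Leaving out 1 sample gave 14 to 20 rises. RPP40 (0.95, adjusted p = 7.28e-05) and POP1 (0.71, adjusted p = 0.000318), subunits of the tRNA-cutting ribonuclease P, led the rises, with the tRNA methyltransferase TRMT1 (0.42, adjusted p = 0.000359). Among 14 genes of cytosolic elongation, 5 rose and 1 fell (35.7% and 7.14%, median 0.12). The translocation factor EEF2 rose from 497 ± 10.9 to 649 ± 11.6 FPKM (SD, n = 3 each, log2 fold change 0.39), and EEF1D (0.29) and EEF1G (0.15), subunits of the exchange factor for the tRNA-delivering EEF1A, rose less. The fall, EEF1A1 (-0.09, adjusted p = 0.0245, named after its value was seen), was lost under 5 of the alternative settings.

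Among 29 mitochondrial translation factors and tRNA enzymes, 3 rose and 2 fell (10.3% and 6.9%), both shares below those of all genes tested, with a median log2 fold change of 0.01. The rises came to 1 without sh-NC replicate 3 or sh-TRAF2 replicate 3, and the falls to 1 without any single sh-NC sample. TRIT1, which modifies tRNA next to the anticodon, fell from 8.05 ± 0.106 to 5.73 ± 0.0998 FPKM (SD, n = 3 each, -0.48, adjusted p = 0.000156). HSD17B10, a subunit of mitochondrial ribonuclease P, rose (0.18, adjusted p = 0.0114), as did MTFMT, which formylates the initiator tRNA (0.31, adjusted p = 0.0324), with an adjusted p of up to 0.1 when a sample was left out. Of 24 sensors and regulators of amino acid supply and synthetase transcription, 9 rose and 3 fell (37.5% and 12.5%, median 0.18). The shares over all genes tested were 23.7% and 20.9%. The falls, named after their values were seen, were RRAGD (-0.64), NRF1 (-0.50) and MYC (-0.14). PPP1R15B, which guides the phosphatase of eIF2 (0.48, adjusted p = 5.76e-05), EIF2S1, the eIF2 subunit that stress kinases phosphorylate (0.48, adjusted p = 0.00015), and EIF2B1, a subunit of its exchange factor (0.52, adjusted p = 0.00017), all rose.

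**Figure D4:**
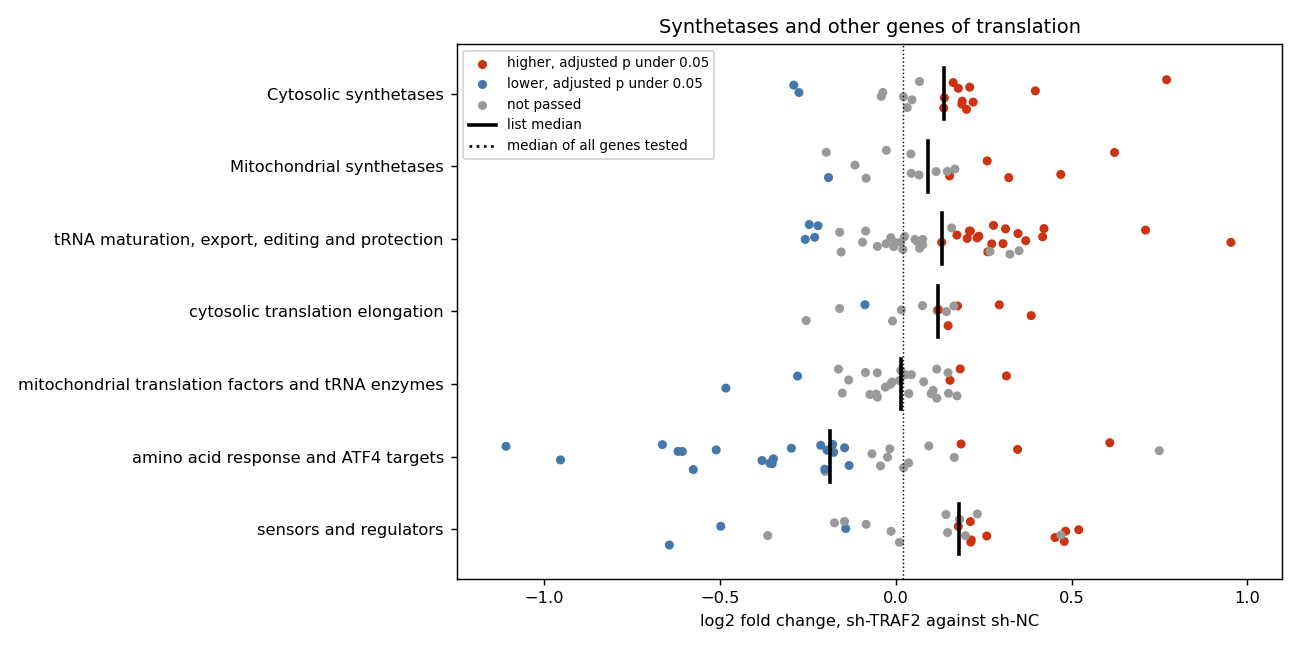
Log2 fold change in sh-TRAF2 against sh-NC of each gene (points) in the cytosolic and mitochondrial synthetases and in 5 other lists, with each list's median (black bar) and the median of all genes tested (dotted line). The amino acid response list has its median at -0.19 and the cytosolic synthetases at 0.14.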

How the data were processed

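RNA of 6 U251 samples (3 sh-NC, 3 sh-TRAF2) was measured by sequencing, with groups taken from the sample labels. The authors deposited 1 table of FPKM values. The submitters' processing notes name HISAT2, HTSeq, DESeq2 and R 3.2.0, without roles. The genome build, annotation and strand setting are not given in the sources used here. All FPKM values proved to be whole multiples of a step per gene, from which read counts were recovered for 100% of 23002 genes (tolerance 1e-06 of a read). For 2643 genes above 0 in 1 sample, the count was set to the lowest possible. On simulated data 96.7% of 1661 genes were recovered exactly.

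From the deposited FPKM, log2(FPKM + 0.1) was compared with limma 3.58.1 in R 4.3.3 (lmFit, eBayes with a trend, two-sided) over the 11870 genes whose mean FPKM reached 0.5, and p-values were adjusted over all of them (Benjamini-Hochberg). In simulated data of 11870 genes, the fit called 89% of 100 genes changed by 1 on the log2 scale, 73% of 100 changed by 0.5 and 0.0514% of 11670 unchanged genes. Far fewer genes were changed there than were called in the data (23.7% higher and 20.9% lower). The adjustment was therefore stricter in the simulation, and its rates do not carry over to the data. Log2 values correlated across genes at 0.993 to 0.995 within groups and 0.979 to 0.985 between them. Pair ratios were tested with exact permutation. The genes, lists and tests were chosen with earlier results of these data known, and none is independent of them. Given in full were the 5 largest called rises and falls in each compartment and both scaffold genes, and for each other list the 3 genes with the smallest adjusted p. Pairs named were those with the 3 largest and 3 smallest changes of the ratio. AARSD1, MRPP3, C12orf65 and MYCN were not analysed here.

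As alternatives, the pseudocount was set to 1 or 0.01, the filter was dropped or raised to 1 FPKM, values were rescaled to TPM or quantile normalized, the replicate number was added as a block, and eBayes was run without its trend. Limma-voom was run on the recovered reads of 14130 genes (mean of 10 reads or more), and each sample was left out in turn. Promoter windows came from RefSeq (GRCh38.p14), with no entry for LARS1, VARS1, YARS1, AARS2 and VARS2, and exon overlaps from GENCODE release 29. Other software was matplotlib 3.10.9, scipy 1.17.1, pandas 2.3.3, numpy 2.4.6 and Python 3.11.15.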

Additional observations from a re-analysis of the deposited data

How the results depend on the processing

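Counts of called synthetases, group medians and the TRAF2 fold change were recomputed under 15 alternative settings. Of 135 values, 133 stayed within 1.5 times the reported count, within the replicate spread or, for TRAF2, at the same direction and call. The median log2 fold change of the cytosolic enzymes was 0.113 under quantile normalization, and 0.128 to 0.161 when each sample was left out in turn. Of 555 values of single genes, 538 kept their direction and call, and no called gene changed direction. The sign turned in 5 genes that were never called: under quantile normalization in WARS1 (-0.022), LARS1 (-0.010) and IARS2 (-0.007), and with each sample left out in turn in WARS1 (-0.017 to 0.123), VARS2 (-0.001 to 0.077) and WARS2 (-0.066 to 0.015). CARS2 lost its call with eBayes without a trend (adjusted p = 0.0549), without a filter (0.0545) and without any of 5 samples (0.0606 to 0.114). EPRS1 lost its call (0.0823) and IARS1 was called lower (0.0227) under quantile normalization, and MARS2 was called higher (0.0484) without sh-NC replicate 2. The change of the FARSA/FARS2 ratio, -0.07 as reported, was 0.12 with a pseudocount of 1. With the replicate number as a replicate block, 18 synthetase genes were higher and 3 lower, as without it, and no single gene changed its call. Same-numbered samples deviated from their group means with correlations of -0.081, 0.072 and 0.073. Differently numbered samples gave -0.141 to 0.067, so there was no sign that the numbers pair the samples. With 3 samples per group, pairing is not excluded. Over all genes, quantile normalization gave 2541 higher and 2725 lower calls, in place of 2818 and 2479. Of 150 counts in the other lists, 13 moved by more than 1.5 times, all in the elongation and mitochondrial translation lists. With 3 samples per group, intervals of the lowest genes stayed wide.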
